A study of Homo sapiens with 6 samples.

Results

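The core set for transcription and upkeep of mitochondrial DNA and its RNA comprised 10 nuclear genes, chosen by name from the 58735 genes in the table: POLRMT, TFAM, TFB2M and TFB1M of the transcription machinery, TWNK, POLG and SSBP1 of the replisome, and LRPPRC, SLIRP and PNPT1 of RNA maintenance. They were measured in Hep-G2 cells, an established human line from a hepatocellular carcinoma (HCC), to learn which transcripts change when calmegin (CLGN), a chaperone of the endoplasmic reticulum, is depleted. All cells were transduced with a lentivirus carrying a short hairpin RNA and selected with puromycin, with either a control hairpin (sh-NC, labelled WT, n = 3 libraries) or a hairpin against CLGN (sh-CLGN, labelled as knock down, n = 3 libraries). Only 1 hairpin stood for each group and all 6 libraries carried the same batch label, 0DAY, so the loss of CLGN cannot be told apart from other effects of that hairpin or of its culture. The sources used here do not say that libraries came from separate cultures, so p-values measure the spread between these libraries only, which may be technical.

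Human mitochondria hold a small circular genome whose strands are each transcribed into long precursor RNAs, which are then cut into mRNAs, rRNAs and tRNAs. POLRMT is the RNA polymerase of this system, TFAM bends and packs the DNA and recruits the polymerase to promoters, and TFB2M melts the promoter, whereas its relative TFB1M methylates the small ribosomal RNA. TWNK is the helicase, POLG the catalytic subunit of the DNA polymerase and SSBP1 the single-strand binding protein of the replication fork. The LRPPRC-SLIRP complex binds and stabilises mitochondrial mRNAs, and PNPT1 is polynucleotide phosphorylase, which degrades RNA together with the helicase SUPV3L1.

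Depth was similar in all libraries, at 14955816 to 16244639 reads recovered from the table. Expression is given as FPKM (fragments normalised to gene length and to library size), and changes as log2 fold changes of sh-CLGN over sh-NC on the log2(FPKM + 1) scale from limma, with Benjamini-Hochberg adjustment over the 13074 genes that reached 1 FPKM in 3 or more libraries. Genes with an adjusted p no higher than 0.05 are called. CLGN, the targeted gene, was present at 21.0 to 26.1 FPKM in sh-NC and at 8.60 to 9.48 FPKM in sh-CLGN, a log2 fold change of -1.31 (SE 0.081, limma adjusted p = 8.35e-06). The groups differed over much of the transcriptome: 65.8% of tested genes were called, 26.7% higher and 39.0% lower, and 70.2% had libraries that did not overlap between groups. In bulk RNA, fewer cells of a type and less RNA per cell cannot be told apart.

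All 10 genes passed the filter and were read deeply enough to compare, at 236 to 4175 reads per library. TWNK fell to 47.5% of its sh-NC level, LRPPRC rose to 153%, and PNPT1 and SSBP1 rose to 125% and 113%. The other 6, among them the polymerase and its initiation factors, were not called. Thus 4 of 10 genes (40%) were called, against 65.8% of all tested genes, with 3 higher (26.7% of all genes were) and 1 lower (39.0% of all genes were). None reached an absolute log2 fold change of 1 as well, which 6.28% of tested genes did. The libraries of 5 of the 10 did not overlap between groups, against 70.2% of tested genes, and the median log2 fold change of the 10 was 0.074, against -0.077 over all tested genes. The calls depended on how libraries were scaled: with scaling by read totals 6 of the 10 were higher and 1 lower, while the median of all tested genes moved up by 0.16 and all calls went from 3496 higher and 5102 lower to 5048 higher and 3407 lower.

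**Figure D1:**
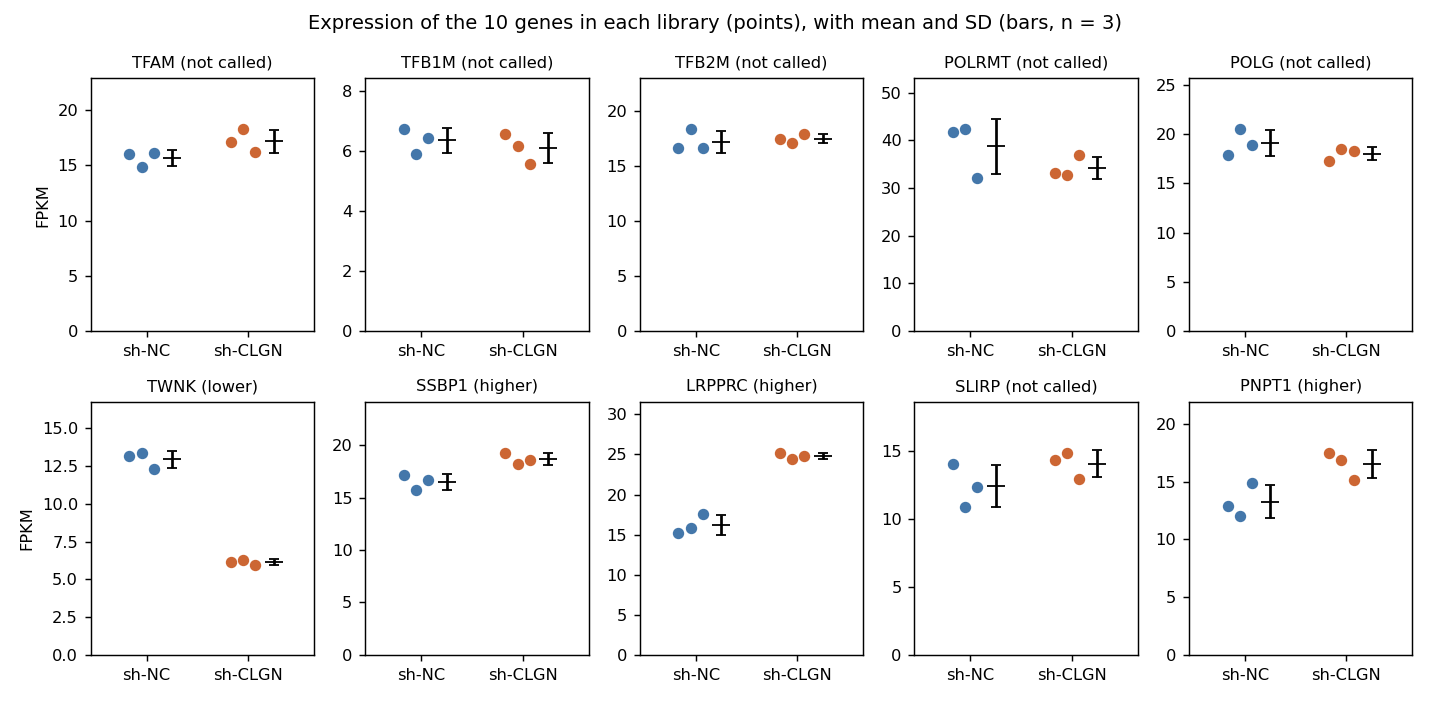
FPKM of the 10 genes (vertical axes from 0, a scale for each gene) in the 3 sh-NC libraries (blue) and the 3 sh-CLGN libraries (orange), left to right by replicate number, with mean and SD as bars. TWNK at 5.95 to 6.32 FPKM in sh-CLGN lies well under its 12.3 to 13.4 FPKM in sh-NC, LRPPRC lies above, and for POLRMT, POLG, TFB1M, TFB2M and SLIRP the libraries of both groups overlap.

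The initiation machinery differed little between the groups. POLRMT (chr19:617224-633604, minus strand), the most abundant of the 10 transcripts per length, was at 41.8, 42.4 and 32.1 FPKM in replicates 1 to 3 of sh-NC and at 33.1, 32.7 and 36.9 FPKM in those of sh-CLGN. The third sh-NC library was the lowest of all 6, and the groups overlapped. Its log2 fold change was -0.17 (SE 0.107, 95% interval -0.41 to 0.081, limma adjusted p = 0.203). Without that sh-NC library POLRMT was called lower, at -0.29 (limma adjusted p = 0.00456), so the outcome for the polymerase rested on sh-NC replicate 3.

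TFAM (chr10:58385022-58399221, plus strand) was at 16.0, 14.8 and 16.1 FPKM in sh-NC and 17.1, 18.3 and 16.2 FPKM in sh-CLGN. All sh-CLGN libraries were above all sh-NC libraries, though the closest were apart by less than the spread within either group, and the log2 fold change of 0.12 was not called (SE 0.061, 95% interval -0.019 to 0.27, limma adjusted p = 0.110). This gene changed call with the processing: it was called higher under all 5 other scalings, at 0.22 to 0.34, and lower after a GC correction, at -0.13 (limma adjusted p = 0.0373).

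TFB2M (chr1:246540560-246566324, minus strand) was at 16.7, 18.4 and 16.6 FPKM in sh-NC and 17.5, 17.1 and 17.9 FPKM in sh-CLGN, so the sh-CLGN libraries lay inside the sh-NC range. The change was 0.024 (95% interval -0.10 to 0.15, limma adjusted p = 0.722). Its paralog TFB1M (chr6:155257509-155314493, minus strand) had the lowest mean of the 10 in each group, at 6.73, 5.91 and 6.45 FPKM in sh-NC and 6.57, 6.18 and 5.57 FPKM in sh-CLGN. The groups overlapped here too, with a change of -0.052 (95% interval -0.22 to 0.12, limma adjusted p = 0.560). Exons of TFB1M share 215 bases, 7.86% of its exonic length, with TIAM2 on the opposite strand. The signs of the changes in TFB1M and POLRMT are not fixed by these data, since each turned positive when libraries were scaled by read totals.

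What these 4 genes share, and the other 5 genes with a RefSeq promoter entry do not, is a match to the letters GCGCANGCG, the core of the site bound by NRF1 (nuclear respiratory factor), searched on both strands in the promoter window around the annotated start. The letters were in 7.52% of 35116 RefSeq promoters and in 13.1% of the 13121 promoters of tested genes. The 4 windows are shown (RefSeq, GRCh38.p14, 300 bases each, strand of the gene, 5′ to 3′), with the matched letters in capitals, where overlapping matches run together.

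TFAM (chr10:58385160-58385459, plus strand): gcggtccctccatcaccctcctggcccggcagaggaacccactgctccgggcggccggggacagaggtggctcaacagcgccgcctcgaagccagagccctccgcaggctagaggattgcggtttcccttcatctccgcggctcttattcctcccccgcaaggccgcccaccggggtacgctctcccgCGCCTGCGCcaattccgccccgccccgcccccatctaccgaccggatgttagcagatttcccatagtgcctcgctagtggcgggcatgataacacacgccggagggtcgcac
POLRMT (chr19:633488-633787, minus strand): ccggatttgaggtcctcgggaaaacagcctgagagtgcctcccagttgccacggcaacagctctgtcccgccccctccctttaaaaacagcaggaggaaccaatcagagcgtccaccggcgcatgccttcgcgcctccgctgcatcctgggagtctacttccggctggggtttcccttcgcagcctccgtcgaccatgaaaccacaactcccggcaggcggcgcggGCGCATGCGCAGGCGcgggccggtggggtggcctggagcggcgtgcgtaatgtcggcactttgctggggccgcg
TFB1M (chr6:155314435-155314734, minus strand): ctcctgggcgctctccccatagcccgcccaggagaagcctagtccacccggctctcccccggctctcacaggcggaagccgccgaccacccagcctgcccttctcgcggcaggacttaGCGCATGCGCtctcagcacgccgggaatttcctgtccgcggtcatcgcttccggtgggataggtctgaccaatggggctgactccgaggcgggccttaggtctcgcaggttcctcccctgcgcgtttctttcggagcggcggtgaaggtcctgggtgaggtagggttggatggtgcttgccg
TFB2M (chr1:246566212-246566511, minus strand): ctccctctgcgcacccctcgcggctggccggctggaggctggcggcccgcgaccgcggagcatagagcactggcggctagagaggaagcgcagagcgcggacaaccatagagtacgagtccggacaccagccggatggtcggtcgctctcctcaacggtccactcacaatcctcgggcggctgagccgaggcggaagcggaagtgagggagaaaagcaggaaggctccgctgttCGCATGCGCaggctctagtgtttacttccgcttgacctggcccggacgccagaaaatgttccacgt

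The matches began at positions -62 in TFAM, -24 in POLRMT, -132 in TFB1M and -16 in TFB2M, relative to the start of transcription. NRF1 mRNA itself fell in sh-CLGN, from 7.90 ± 0.332 to 3.90 ± 0.484 FPKM (SD, n = 3), a log2 fold change of -0.86 (SE 0.080, limma adjusted p = 5.23e-05). None of the 4 genes with the letters was called in the main fit, though TFAM, TFB2M and POLRMT each were under some other setting or without 1 library. Whether the level of NRF1 bears on these genes was not tested. Over the table, the 1600 tested genes with the letters had a median change of -0.12, 22.4% higher and 43.4% lower, and the 7473 tested genes with a promoter entry and without the letters had a median of -0.11, 26.1% higher and 42.7% lower. The letters CCGGAAG, read by ETS factors such as GABPA, were in the promoters of POLRMT, SLIRP, SSBP1 and TFB1M (10.3% of all promoters, 17.6% of those of tested genes). Those of YY1, CCATNTT, were in LRPPRC, SLIRP and SSBP1 (15.6% and 15.9%). A match is a run of letters and not a measured site.

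In the replisome, the helicase fell while the polymerase did not change beyond its spread. TWNK (chr10:100987367-100994401, plus strand) was at 13.1, 13.4 and 12.3 FPKM in sh-NC and 6.18, 6.32 and 5.95 FPKM in sh-CLGN. Every sh-CLGN library was under every sh-NC library, and the gap between the groups was many times the spread within either. The log2 fold change was -0.96 (SE 0.056, 95% interval -1.09 to -0.83, limma adjusted p = 6.21e-06), and 3.64% of tested genes had a lower value. TWNK stayed lower and called in all 13 alternative settings, from -1.07 to -0.77, and without any of the 6 libraries in turn. Its exons share 149 bases, 3.61% of its exonic length, with MRPL43 on the opposite strand, and the sources used here do not give the strandedness of the counting. MRPL43, a protein of the large mitochondrial ribosomal subunit, also fell, from 12.1 ± 2.10 to 8.64 ± 0.096 FPKM (SD, n = 3; log2 fold change -0.43, limma adjusted p = 0.00908).

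POLG (chr15:89305198-89334861, minus strand) was at 17.9, 20.5 and 18.9 FPKM in sh-NC and 17.2, 18.5 and 18.3 FPKM in sh-CLGN. The groups overlapped, and the change of -0.080 was not called (95% interval -0.22 to 0.063, limma adjusted p = 0.282). With scaling by read totals the sign turned, to 0.11. Exons of POLG share 458 bases with FANCI on the opposite strand, which is 7.66% of its exonic length.

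SSBP1 (chr7:141738321-141787922, plus strand) was at 17.2, 15.7 and 16.7 FPKM in sh-NC and 19.3, 18.2 and 18.6 FPKM in sh-CLGN. All sh-CLGN libraries were higher, by a small margin, at a log2 fold change of 0.17 (SE 0.053, 95% interval 0.046 to 0.29, limma adjusted p = 0.0226). The call was lost without sh-NC replicate 2 (adjusted p = 0.0755 in limma), sh-CLGN replicate 1 (0.0905) or sh-CLGN replicate 3 (0.0563), and after the GC correction, which left a change of 0.013. It was kept under the other 5 scalings.

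The RNA-binding partners LRPPRC and SLIRP did not move by the same amount. LRPPRC (chr2:43886508-43996005, minus strand), a pentatricopeptide repeat protein, was at 15.3, 15.8 and 17.6 FPKM in sh-NC and 25.2, 24.5 and 24.9 FPKM in sh-CLGN. The groups were far apart, and the spread among the sh-CLGN libraries was small (SD 0.379 FPKM). The log2 fold change was 0.59 (SE 0.060, 95% interval 0.45 to 0.73, limma adjusted p = 8.23e-05), and 11.01% of tested genes had a higher value. LRPPRC was called higher in all 13 alternatives, from 0.41 after the GC correction to 0.83 under quantile normalization, and without any of the 6 libraries.

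SLIRP (chr14:77708071-77761104, plus strand), its small RNA-binding partner, was at 14.0, 10.9 and 12.4 FPKM in sh-NC and 14.4, 14.9 and 12.97 FPKM in sh-CLGN. The lowest sh-CLGN library was under the highest sh-NC library, and the change of 0.17 was not called (SE 0.092, 95% interval -0.041 to 0.38, limma adjusted p = 0.134). It was called higher without sh-NC replicate 1 (0.26, limma adjusted p = 0.0305) and under the 5 other scalings, at 0.27 to 0.38. Exons of SLIRP share 118 bases with SNW1 on the opposite strand and 275 bases, 10.5% of its exonic length, with C14orf178 on the same strand, which had at most 2 reads.

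PNPT1 (chr2:55634265-55693910, minus strand) was at 12.8, 12.1 and 14.9 FPKM in sh-NC and 17.5, 16.9 and 15.1 FPKM in sh-CLGN. The third library of each group came close to the other group without crossing. The log2 fold change was 0.30 (SE 0.085, 95% interval 0.10 to 0.50, limma adjusted p = 0.0150). The call was lost without sh-CLGN replicate 1 (limma adjusted p = 0.0527), with no filter on low genes (0.0521) and after the GC correction, which left 0.069. Its processed pseudogene PNPT1P1 took 0 to 5 reads per library, POLRMTP1 took 30 to 55, and the pseudogenes TFAMP1 and TFAMP2 took 0.

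**Figure D2:**
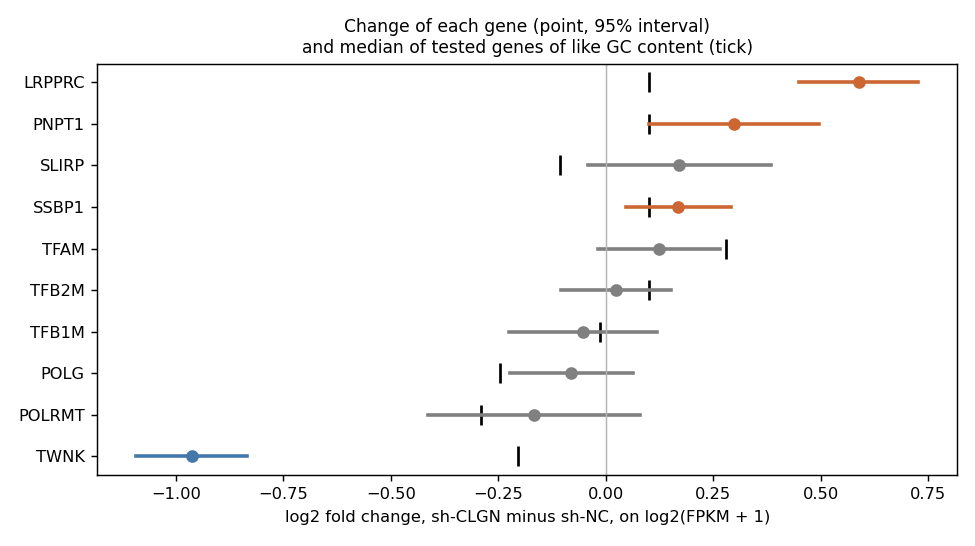
Log2 fold change of each gene on log2(FPKM + 1) (horizontal axis, point, with the 95% interval as a line; orange, called higher; blue, called lower; grey, not called), beside the median of the tested genes in the same group by GC content (black tick). LRPPRC at 0.59 and TWNK at -0.96 lie far from the ticks of their GC groups, at 0.10 and -0.20, whereas the intervals of SSBP1 and TFB2M include the tick at 0.10 and that of PNPT1 begins at 0.10.

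Changes in this series varied with base composition, so each gene was set beside the tested genes of like GC content, ranked into 10 groups of equal size. LRPPRC, PNPT1, SSBP1 and TFB2M, with 40.04% to 41.94% GC in their transcripts, fell in a group whose median change was 0.10. TFAM, at 39.4% GC, fell in a group whose median was 0.28, above its own change of 0.12. The medians for POLRMT (65.1% GC), POLG (58.2% GC) and TWNK (53.2% GC) were -0.29, -0.25 and -0.20. After the GC trend was removed in each library, TWNK (-0.85) and LRPPRC (0.41) kept their calls, SSBP1 and PNPT1 lost theirs, and TFAM was called lower. The part of GC content in these changes was not tested further.

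A scale factor shared by all genes of a library leaves the ratio of 2 genes as it is, unlike quantile normalization or the GC correction, and 5 ratios of the deposited FPKM were computed for partners that work together. LRPPRC to SLIRP was 1.09, 1.45 and 1.42 in sh-NC, compared with 1.75, 1.64 and 1.92 in sh-CLGN, so that every sh-CLGN library held more LRPPRC per SLIRP than any sh-NC library. POLG to TWNK was 1.36, 1.53 and 1.54 in sh-NC, compared with 2.79, 2.92 and 3.08 in sh-CLGN, again without overlap. Both gave p = 0.1 in a two-sided exact permutation test, the smallest p that 3 against 3 libraries can give (0.25 after Benjamini-Hochberg adjustment over the 5 ratios). POLRMT to TFAM was 2.60, 2.85 and 1.99 in sh-NC, compared with 1.94, 1.79 and 2.28 in sh-CLGN, and POLRMT to TFB2M averaged 2.25 ± 0.291 and 1.95 ± 0.094 (SD, n = 3). Both overlapped between groups (exact permutation p = 0.2 for each, 0.25 adjusted). TFB2M to TFB1M was 2.72 ± 0.341 and 2.88 ± 0.291 (SD, n = 3; exact permutation p = 0.5), which overlapped.

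The order of the levels changed beyond the spread for 2 genes, LRPPRC and TWNK. In sh-NC, POLRMT led at 38.8 FPKM, a middle group ran from POLG at 19.1 FPKM down through TFB2M, SSBP1, LRPPRC, TFAM, PNPT1 and TWNK to SLIRP at 12.4 FPKM with every neighbour overlapping the next, and TFB1M was last at 6.36 FPKM. In sh-CLGN, LRPPRC at 24.8 FPKM stood alone below POLRMT at 34.2 FPKM, and TWNK at 6.15 FPKM had come down to TFB1M at 6.11 FPKM, with overlapping libraries. The others kept to a range from SSBP1 at 18.7 FPKM to SLIRP at 14.1 FPKM.

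**Figure D3:**
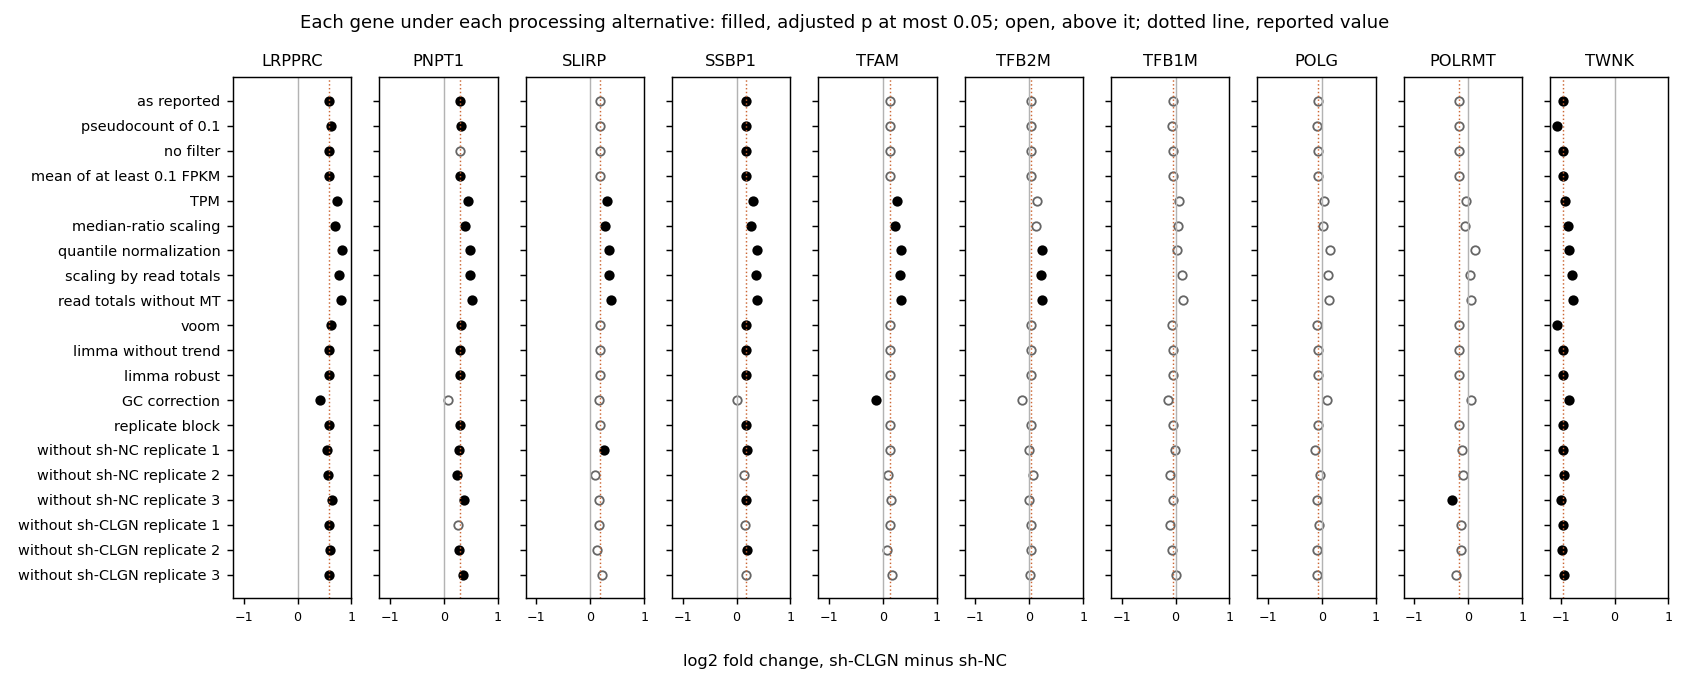
Log2 fold change of each of the 10 genes (horizontal axes, sh-CLGN over sh-NC) as reported, under the 13 alternative settings and without each library (vertical axis). Filled points had an adjusted p of at most 0.05, open points had not, and the dotted line is the reported value. LRPPRC and TWNK are filled throughout, whereas TFAM, TFB2M, POLRMT, SLIRP, SSBP1 and PNPT1 change between filled and open, and TFAM, TFB2M, POLRMT, POLG and TFB1M cross 0.

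Around the 10 core genes, 83 other genes of the pathway were listed by function and 80 of them were tested, PPARGC1B only through sh-NC and TYMP only through sh-CLGN. Of these, 10 were higher (26.7% of all tested genes were) and 42 lower (39.0% were), with a median change of -0.22. With scaling by read totals the split was 23 higher and 25 lower, and of all 13163 genes tested there 5048 were higher and 3407 lower. That scaling also tested KIAA0391, which encodes PRORP and passed the filter there through sh-CLGN alone. The counts under that scaling given below for single lists stand against the same totals. Among the 10 genes of mtDNA replication and repair, 6 fell and 0 rose, against 39.0% and 26.7% of all tested genes, and with scaling by read totals 3 fell and 2 rose. RNASEH1, which removes RNA primers, went from 12.9 ± 0.893 to 5.96 ± 0.493 FPKM (SD, n = 3; log2 fold change -0.99). TOP3A, a topoisomerase that separates daughter circles, changed by -0.82 and LIG3, a DNA ligase that acts in mitochondria, by -0.37. The adjusted p-values of RNASEH1, TOP3A and LIG3 in limma were at most 0.000557. Values per gene pool any nuclear and mitochondrial forms of an enzyme.

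Of the 5 factors of elongation and termination, 2 were called, both higher (26.7% of all tested genes were), at a median of 0.28. After the GC correction 1 was higher and 1 lower, with a median of -0.011, while 3501 of all 13068 genes tested there were higher and 5341 lower. MTERF2 changed by 0.45 (limma adjusted p = 0.00426), and TEFM, which makes POLRMT processive, by 0.37 (limma adjusted p = 0.0163). TEFM was low, at 1.52 ± 0.179 FPKM in sh-NC and 2.28 ± 0.377 FPKM in sh-CLGN (SD, n = 3), and its call was lost with no filter, under quantile normalization, after the GC correction and without sh-NC replicate 2, sh-CLGN replicate 1 or sh-CLGN replicate 2 (limma adjusted p up to 0.0641). MTERF1, MTERF3 and MTERF4 were not called, with changes of 0.28, -0.044 and -0.19.

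In the list of RNA processing, polyadenylation and decay, 3 of 22 tested genes were higher and 9 lower, against 26.7% and 39.0% of all tested genes, and 12 (54.5%) were called, against 65.8%. With scaling by read totals 8 of 23 were higher and 5 lower, where KIAA0391 was tested through sh-CLGN alone. It held the only 2 of the 80 genes past an absolute log2 fold change of 1. RPUSD4, a pseudouridine synthase of mitochondrial RNA granules, rose from 3.03 ± 0.129 to 8.18 ± 0.505 FPKM (SD, n = 3; log2 fold change 1.19, limma adjusted p = 5.2e-06). GRSF1, a G-rich RNA-binding protein of the same granules, fell from 16.9 ± 0.973 to 7.56 ± 0.269 FPKM (SD, n = 3; log2 fold change -1.06, limma adjusted p = 5.63e-06). ELAC2, which cuts the 3′ ends of tRNAs, fell by 0.42 on the log2 scale. SUPV3L1, the helicase partner of PNPT1, went from 9.94 to 7.69 FPKM on average (log2 fold change -0.33, limma adjusted p = 0.00183), opposite in sign to PNPT1 itself. Its name was chosen for that partnership after its value was seen, and its call was lost under both scalings by read totals (limma adjusted p up to 0.113).

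Of the 20 enzymes of RNA modification and ribosome assembly, 13 were lower and 1 higher, against 39.0% and 26.7% of all tested genes, with a median of -0.33. With scaling by read totals 9 were lower and 3 higher. ERAL1, a chaperone of the small ribosomal RNA, fell from 48.9 ± 2.65 to 27.1 ± 0.597 FPKM (SD, n = 3; log2 fold change -0.82). DDX28, an RNA helicase of large subunit assembly, changed by -0.86, and MRM2, a methyltransferase of the large ribosomal RNA, by -0.58. All 3 had adjusted p-values in limma of at most 3.46e-05. TFB1M, which acts beside them on the small ribosomal RNA, was not called.

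Of the nucleoid proteins and matrix proteases, 5 of 7 were lower and 0 higher, against 39.0% and 26.7% of all tested genes (2 and 2 with scaling by read totals). PHB2, a prohibitin of the inner membrane, fell from 125 ± 7.61 to 64.4 ± 1.48 FPKM (SD, n = 3; log2 fold change -0.94, limma adjusted p = 6.38e-06). ATAD3A and the protease subunit CLPP changed by -0.40 and -0.39, and lost their calls under quantile normalization, CLPP also under both scalings by read totals (limma adjusted p = 0.0683 and 0.116). LONP1, the protease that degrades unbound TFAM, changed by -0.34 (limma adjusted p = 0.00988). It was named for its link to TFAM after its value was seen, and its call was lost under TPM, quantile normalization and both scalings by read totals (limma adjusted p up to 0.551).

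Of the 9 genes of nucleotide supply, 3 were higher and 4 lower, against 26.7% and 39.0% of all tested genes (3 and 3 with scaling by read totals). The pyrimidine nucleotide carriers SLC25A36 and SLC25A33 rose by 0.73 and 0.37 on the log2 scale, and the ADP/ATP carrier SLC25A4 fell by 0.58. The adjusted p-values of these 3 in limma were at most 0.000657. Among 9 regulators of mitochondrial biogenesis, 7 passed the filter, of which PPARGC1B did so through sh-NC alone, while PPARGC1A and GABPB2, whose sh-CLGN libraries were the higher, did not pass, so no count is given for those that passed. With no filter 2 of the 9 were higher and 5 lower. There 4538 of 33474 genes were higher and 4708 lower (27.6% called), a base that includes the genes under the filter and is not comparable with the 65.8% called above it. GABPA, a subunit of the ETS factor that acts on many of these genes, changed by 0.57, NRF1 by -0.86 as above, and the nuclear receptor ESRRA by -0.69 (limma adjusted p at most 0.000323). YY1 was not called, at 0.055.

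**Figure D4:**
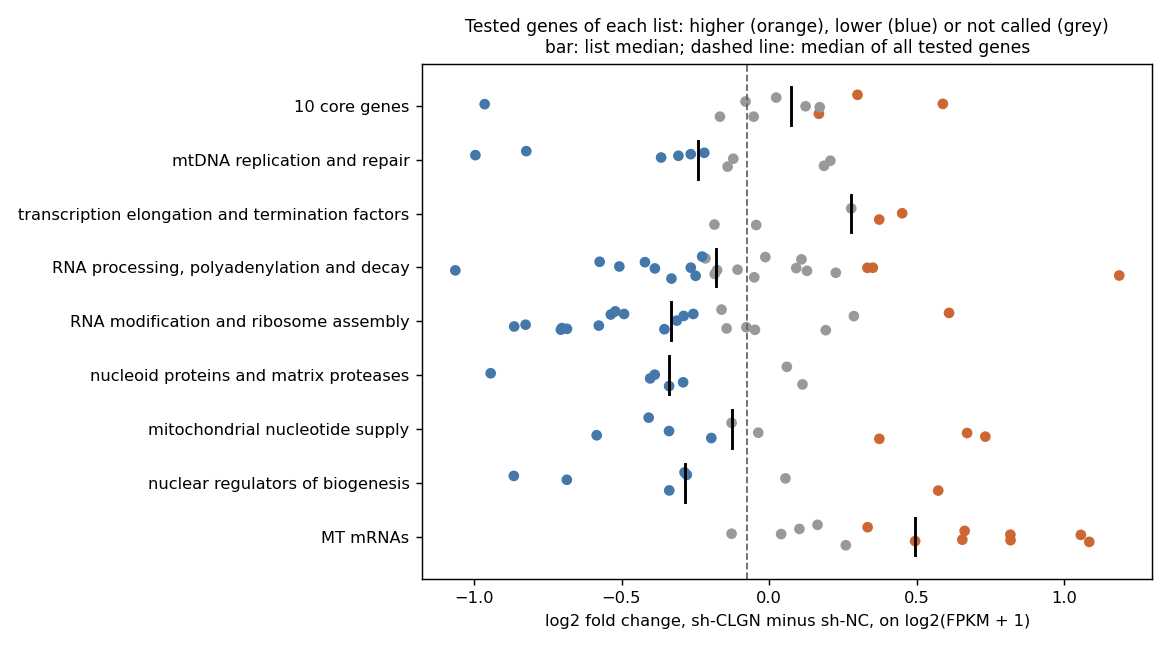
Log2 fold change on log2(FPKM + 1) (horizontal axis) of each tested gene of the 10 core genes, the 7 wider lists and the 13 mitochondrial mRNAs (vertical axis), in orange where higher, blue where lower and grey where not called, with the median of each list (bar) and of all tested genes (dashed line, -0.077). The mitochondrial mRNAs and the elongation and termination factors have medians of 0.49 and 0.28 (0.46 and -0.011 after the GC correction), the 10 core genes 0.074, and the other lists lie between -0.13 and -0.34.

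The RNA that this machinery makes and keeps was measured in the same libraries. The mitochondrial genome took 4.02%, 3.25% and 3.57% of reads in sh-NC, compared with 5.54%, 5.49% and 5.80% in sh-CLGN, with no overlap (exact permutation p = 0.1, the smallest possible). Of the 13 mitochondrial mRNAs, 8 were called higher (26.7% of all tested genes were), 0 lower and 5 not called, from -0.13 for MT-ND3 to 1.08 for MT-ND2. The alternative settings called 5 (no filter) to 10 (read totals) of them higher and 0 lower. Over all genes tested there, 4538 of 33474 were higher with no filter and 5048 of 13163 with read totals. The light-strand transcript MT-ND6 rose from 1507 ± 237 to 2357 ± 150.4 FPKM (SD, n = 3; log2 fold change 0.65, limma adjusted p = 0.00112), beside 12 heavy-strand mRNAs whose summed level went from 32417 ± 4507 to 41672 ± 2133 FPKM (SD, n = 3), a ratio of 1.29. Both ribosomal RNAs were higher, at a ratio of summed FPKM of 1.37. How these levels relate to LRPPRC, TWNK or any other of the 10 genes was not tested.

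The hairpin sequence was compared with the 3′ UTRs of the 10 genes, since a hairpin can repress other transcripts through short matches to its guide. The letters TACCACA, the site that pairs with the guide's seed, were in the 3′ UTR of 0 of the 10 genes and of 13.1% of 10908 tested genes with an annotated UTR. The letters ATACCAC, shifted by 1 base, were in that of POLG and of 9.69% of those genes. TWNK held neither. Of the 79 wider pathway genes with a UTR, 10 held TACCACA and 5 held ATACCAC, and GRSF1, MTO1 and PTCD3 held both.

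Liver cell identity and other cell types were checked by marker genes. All 10 hepatocyte markers were expressed, with 3 called higher and 6 lower (65.8% of all tested genes were called). They moved apart: on average ALB went from 2007 to 1076 FPKM, TF from 181 to 58.4 FPKM and FOXA2 from 46.6 to 23.2 FPKM, whereas AFP went from 2670.1 to 3782 FPKM. Their sum was 7118 to 7349 FPKM in sh-NC and 7196 to 7658 FPKM in sh-CLGN. Of 9 fibroblast markers, COL1A2 went from 4.203 ± 0.561 to 38.7 ± 0.614 FPKM and PDGFRB from 2.12 ± 0.268 to 2.76 ± 0.271 FPKM (SD, n = 3), both called higher. COL1A1, COL3A1 and LUM were also higher but passed the filter through sh-CLGN alone, and PDGFRA, under the filter, was covered by 46 to 70 reads in the control libraries and 136 to 179 in those of sh-CLGN. DCN, THY1 and FAP had at most 1 read in any library, and the sum of the 9 was 7.17 to 8.51 FPKM in sh-NC and 48.5 to 49.9 FPKM in sh-CLGN. Of 5 leukocyte markers, CD14 alone was tested, through sh-NC alone, at 12 to 41 reads, and PTPRC had at most 4 reads. Of 3 endothelial markers, PECAM1 was tested, at 3.21 and 2.46 FPKM on average, and VWF had at most 3 reads. The part of these markers in the changes of LRPPRC, TWNK, PNPT1 and SSBP1 was not tested.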

How the data were processed

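RNA-seq libraries of Hep-G2 cells (3 sh-NC, 3 sh-CLGN) were made, per the labels, using the NEBNext Ultra kit. The authors deposited FPKM values of each gene in each library, together with length and position of the gene. The submitters' processing notes name HISAT2 2.0.5, featureCounts and GRCh38, and all 58735 positions equal those of GENCODE 29. The strandedness of counting is not given in the sources used here. The columns called KD were matched to the sh-CLGN titles by name and number.

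FPKM times gene length fell on whole reads for 100% of values (tolerance 0.01), which gave depths of 14955816 to 16244639 reads. The library sizes implied by the deposited FPKM amounted to 0.933 to 0.953 of these totals in sh-NC but to 1.07 to 1.08 in sh-CLGN, and median-ratio size factors over the 19191 genes with a read in every library were 1.01 throughout, so the deposited values already carried such a scaling. Reads hold no molecular identifiers, so counts of reads cover counting error only.

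Genes that reached 1 FPKM in 3 or more libraries were compared with limma 3.58.1 (R 4.3.3, eBayes with intensity trend) on log2(FPKM + 1), two-sided, without covariates, with Benjamini-Hochberg adjustment over 13074 genes. This scale understates changes of low genes. Levels and ratios were compared by two-sided exact permutation tests over libraries. Alternatives were no filter, a filter on the mean (0.1 FPKM), a pseudocount of 0.1, TPM, median-ratio factors over the tested genes, quantile normalization, scaling by read totals with and without the mitochondrial genome, voom on the recovered reads, limma without trend, robust limma, a GC correction (lowess, span 0.3, GENCODE 29 transcripts, 99.95% of tested genes), a block for the replicate number, and the omission of each library. The fit was tested on simulated data. Promoters came from RefSeq, where 9 of the 10 genes matched by symbol and TWNK did not, and UTRs of at least 50 bases from GENCODE 29. In the wider lists the 3 called genes with the smallest adjusted p were named, with those under the filter. Python 3.11.15 with numpy 2.4.6, pandas 2.3.3 and matplotlib 3.10.9 was used for tables and figures. The 10 genes and the lists were chosen with earlier results of these data known.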

Additional observations from a re-analysis of the deposited data

Results flagged for a closer look

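Of the 83 wider pathway genes, 3 were under the expression filter and so were not tested, yet every sh-CLGN library lay above every sh-NC library. PPARGC1A, the coactivator PGC-1alpha that drives mitochondrial biogenesis, was at 0.372 ± 0.078 FPKM in sh-NC and 0.846 ± 0.052 FPKM in sh-CLGN (SD, n = 3), a ratio of 2.27, on 53 to 159 reads per library. KIAA0391, which encodes the nuclease PRORP of mitochondrial RNase P, was at 0.418 ± 0.106 and 1.00 ± 0.059 FPKM (SD, n = 3), a ratio of 2.39, on 31 to 121 reads. GABPB2, a partner of GABPA, was at 0.720 ± 0.070 and 0.925 ± 0.081 FPKM (SD, n = 3), a ratio of 1.28, on 82 to 155 reads. Such a separation was common among low genes: of 9013 genes under the filter with at least 10 reads, 2937 (32.6%) were higher in all sh-CLGN libraries and 633 were lower.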

How the results depend on the processing

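TWNK and LRPPRC kept direction and call under every setting tried, and so did 17 of the 20 pathway genes named by rule (not TEFM, ATAD3A and CLPP) and 9 of the 13 other called ones with a value in the text (not LONP1, SUPV3L1, HSD17B10 and DGUOK). Changed scalings moved the median of all tested genes by 0.11 (TPM), 0.088 (median-ratio), 0.060 (quantile), 0.16 (read totals) and 0.18 (read totals without the mitochondrial genome), and in that order the values below were obtained. TFAM was called higher at 0.25, 0.22, 0.33, 0.31 and 0.34, and SLIRP at 0.31, 0.27, 0.35, 0.35 and 0.38. TFB1M turned to 0.064, 0.040, 0.021, 0.12 and 0.14 and POLG to 0.042, 0.022, 0.15, 0.11 and 0.13, uncalled. In the last 3 of these, TFB2M was called at 0.24, 0.21 and 0.24, and POLRMT turned to 0.12, 0.023 and 0.053, uncalled. The 10 genes then gave 5, 5, 6, 6 and 6 higher calls in place of 3. Over all tested genes the higher calls were 5604 of 17877, 4253 of 13078, 3954 of 13074, 5048 of 13163 and 5392 of 13381, in place of 3496 of 13074. Wider pathway genes gave 23 higher calls with TPM, 20 with median-ratio, 23 with read totals and 23 without the mitochondrial genome, in place of 10. These were not all counts of the same genes. TPM also tested KIAA0391, PPARGC1A and GABPB2, which were under the filter in the main fit. Both scalings by read totals also tested KIAA0391, through sh-CLGN alone. The last pair gave 25 and 23 lower calls in place of 42, and over all tested genes 3407 and 3199 in place of 5102.

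The GC correction turned TFAM (-0.13, called), TFB2M (-0.13), POLRMT (0.050) and POLG (0.088), and took the calls of SSBP1 (0.013) and PNPT1 (0.069), leaving 1 higher and 2 lower. Of all 13068 genes tested after that correction, 3501 were higher and 5341 lower. PNPT1 lost its call with no filter, at 0.30, where more genes were tested. Leaving out each library gave 0.080 to 0.16 for TFAM, -0.12 (without sh-NC replicate 1) to -0.030 (without sh-NC replicate 2) for POLG, -0.099 to 0.0031 for TFB1M, -1.71e-05 to 0.069 for TFB2M, -0.29 to -0.098 for POLRMT, 0.13 to 0.20 for SSBP1, 0.088 to 0.26 for SLIRP, 0.24 to 0.38 for PNPT1, 1 to 4 higher calls and 1 to 2 lower calls. Over the 12368 to 12802 genes tested in those fits, 2534 to 3579 were higher and 4561 to 5049 lower. Why these calls and signs changed was not tested.

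Libraries sharing a replicate number did not deviate together from their group means (correlations of -0.018, -0.046 and -0.15), so the numbers give no pairing. With the replicate block TWNK was at -0.96 (limma adjusted p = 0.000178) and LRPPRC at 0.59 (limma adjusted p = 0.000827), no call of the 10 genes changed, and 8038 genes were called in place of 8598. The spread between libraries limited detection most for POLRMT, whose interval of -0.41 to 0.081 was the widest of the 10.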

Other observations

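Within the lists, further enzymes of mitochondrial RNA were lower in sh-CLGN, named here after their values were seen. MRM1 and MRM3, methyltransferases of the large ribosomal RNA like MRM2, were called at -0.68 and -0.70. GTPBP3 and MTO1, which together modify the wobble uridine of tRNAs, changed by -0.71 and -0.52 on the log2 scale (adjusted p in limma at most 0.000244), while TRMU, which adds sulfur to the same base, was not called, at -0.048. The assembly factor MTG2 changed by -0.54. METTL15, a methyltransferase of the small ribosomal RNA, was the only gene of its list called higher in the main fit, rising from 2.76 to 4.73 FPKM on average (log2 fold change 0.61, limma adjusted p = 0.000197). MTG1 and NSUN3 were higher without a call, at 0.29 and 0.19.

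RNA-end factors were mixed. HSD17B10, a subunit of mitochondrial RNase P, changed by -0.39 (limma adjusted p = 0.000363, lost under quantile normalization) and its partner TRMT10C by 0.23, which was not called (limma adjusted p = 0.0841). The exonuclease REXO2 rose by 0.33 on the log2 scale (limma adjusted p = 0.00443). RRM2B, the ribonucleotide reductase subunit of resting cells, rose from 2.69 to 4.84 FPKM on average (log2 fold change 0.67, limma adjusted p = 0.000797), while the salvage kinases TK2 and DGUOK changed by -0.34 and -0.41, the call of DGUOK being lost under quantile normalization and with read totals without the mitochondrial genome.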
